A study of Mus musculus with 9 samples.

Results

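Alarmins and antimicrobial proteins are the secreted or released proteins with which skin answers injury and microbes. The genes examined here were S100a8, S100a9, Lcn2, Slpi, Camp, Defb1, Defb3, Defb6, Wfdc12 and Pglyrp1, chosen by name as every row of the array table whose annotation gives a single gene symbol that is on this list. All 10 were on the array, among 18193 named genes, and Defb1 alone had more than 1 probe set, so that 11 probe sets were read. By limma, 0 of the 10 passed a threshold of 0.05 on the adjusted p for a difference between knockout and wildtype epidermis, where 1.24% of all genes did. The knockout and wildtype values of all 10 overlapped, while 8.28% of all genes had groups that did not overlap.

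The arrays came from trunk epidermis of newborn mice of 2 genotypes, Alox12b-KO (4 arrays) and wildtype (5 arrays), each array from a separate biological replicate according to the sample titles. Alox12b encodes 12R-lipoxygenase, an enzyme of the skin's lipid barrier. Heterozygous parents were bred and the pups were killed at birth and genotyped, so no treatment or later age enters the comparison, and the epidermis of both genotypes was lifted off after brief immersion in hot buffered saline. The labels give neither the strain, the sex, the litter of each pup, nor the part of Alox12b that was deleted.

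S100A8 and S100A9 pair to form calprotectin, which withholds metal ions from microbes and signals danger through pattern and scavenger receptors. Lipocalin 2, cathelicidin, the beta-defensins and peptidoglycan recognition protein 1 act on microbes directly, by holding iron carriers, breaking membranes or binding cell walls, whereas SLPI and WFDC12 carry the WAP domain of protease inhibitors. In adult skin many of these genes are switched on in keratinocytes by barrier damage and by cytokines such as interleukin-17 and interleukin-1, and several are also made by neutrophils.

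Values are log2 expression values as deposited, on which a difference of 1 is a doubling, and array medians lay between 3.14 and 3.31. They are not comparable between genes, because probe sets differ in brightness. Array values cannot separate fewer cells of a type from less RNA per cell. The targeted gene read 11.13 ± 0.33 (SD, n = 4) on knockout and 10.91 ± 0.29 (SD, n = 5) on wildtype arrays, which checks nothing about the labels while the deleted part is not stated. The X-inactivation RNA Xist was at 9.99 to 10.20 in the knockout and at 10.95 on wildtype array 4, and at 3.23 to 4.32 elsewhere. Eif2s3y, from the Y chromosome, ran the other way, at 2.00 to 2.43 and 2.11, and at 7.67 to 8.04 elsewhere. Genotype and sex therefore can hardly be told apart in any comparison given here. Of 15 keratinocyte markers 0 were called, 10 had a negative difference and 6 an unadjusted p under 0.05. Krt10, a keratin of the upper layers, was at 14.17 ± 0.10 on knockout and 14.24 ± 0.04 on wildtype arrays, and Lor, which encodes loricrin, at 14.36 ± 0.07 and 14.33 ± 0.09 (SD, n = 4 and n = 5). Among genes of the basal layer, Trp63 was at 6.12 ± 0.59 and 7.54 ± 0.64 with groups that did not overlap (limma adjusted p 0.0809), Krt15 at 8.64 ± 0.54 and 9.68 ± 0.57, and Itgb4 at 3.62 ± 0.19 and 3.73 ± 0.19. The other basal markers differed by 0.01 (Krt14), -0.34 (Krt5) and -0.89 (Col17a1). The other markers of the upper layers differed by -1.16 (Krt77), -0.58 (Dsg1a), -0.28 (Flg), -0.21 (Dsc1), 0.03 (Krt1), 0.35 (Krt2) and 0.50 (Ivl). Krt14 alone of these basal markers had no negative difference, while the markers of the upper layers differed in both directions. The part of these markers in the values given here was not tested.

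S100a8 and S100a9 encode the calprotectin subunits, and both were high on knockout arrays 1 and 2 and low on knockout arrays 3 and 4. S100a9 read 7.77, 8.34, 5.15 and 4.52 on knockout arrays 1 to 4 and 4.55, 5.92, 6.29, 6.01 and 4.04 on wildtype arrays 1 to 5. Knockout arrays 1 and 2 lay above every wildtype array, while knockout arrays 3 and 4 lay inside the wildtype range. The means were 6.44 ± 1.89 (SD, n = 4) and 5.36 ± 1.00 (SD, n = 5), a difference of 1.08 with a standard error of 0.79 and a 95% interval of -0.66 to 2.82, or a 2.11-fold higher mean. The limma adjusted p was 0.490 and the exact two-sided permutation p was 0.317. The difference was 0.45 without knockout array 2 and 1.72 without knockout array 4.

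S100a8 read 5.60, 5.61, 3.84 and 3.25 on the knockout arrays and 4.34, 5.09, 5.58, 5.04 and 3.79 on the wildtype arrays. Knockout arrays 1 and 2 were again the highest, though only level with wildtype array 3, and knockout array 4 was the lowest of all 9. The group means of 4.57 ± 1.21 (SD, n = 4) and 4.77 ± 0.70 (SD, n = 5) differed by -0.19 with a standard error of 0.52 and an interval of -1.35 to 0.96, with a limma adjusted p of 0.869 and an exact permutation p of 0.802. The S100a8 probe set is of the type that can read related transcripts as well, by its _s_at suffix.

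**Figure D1:**
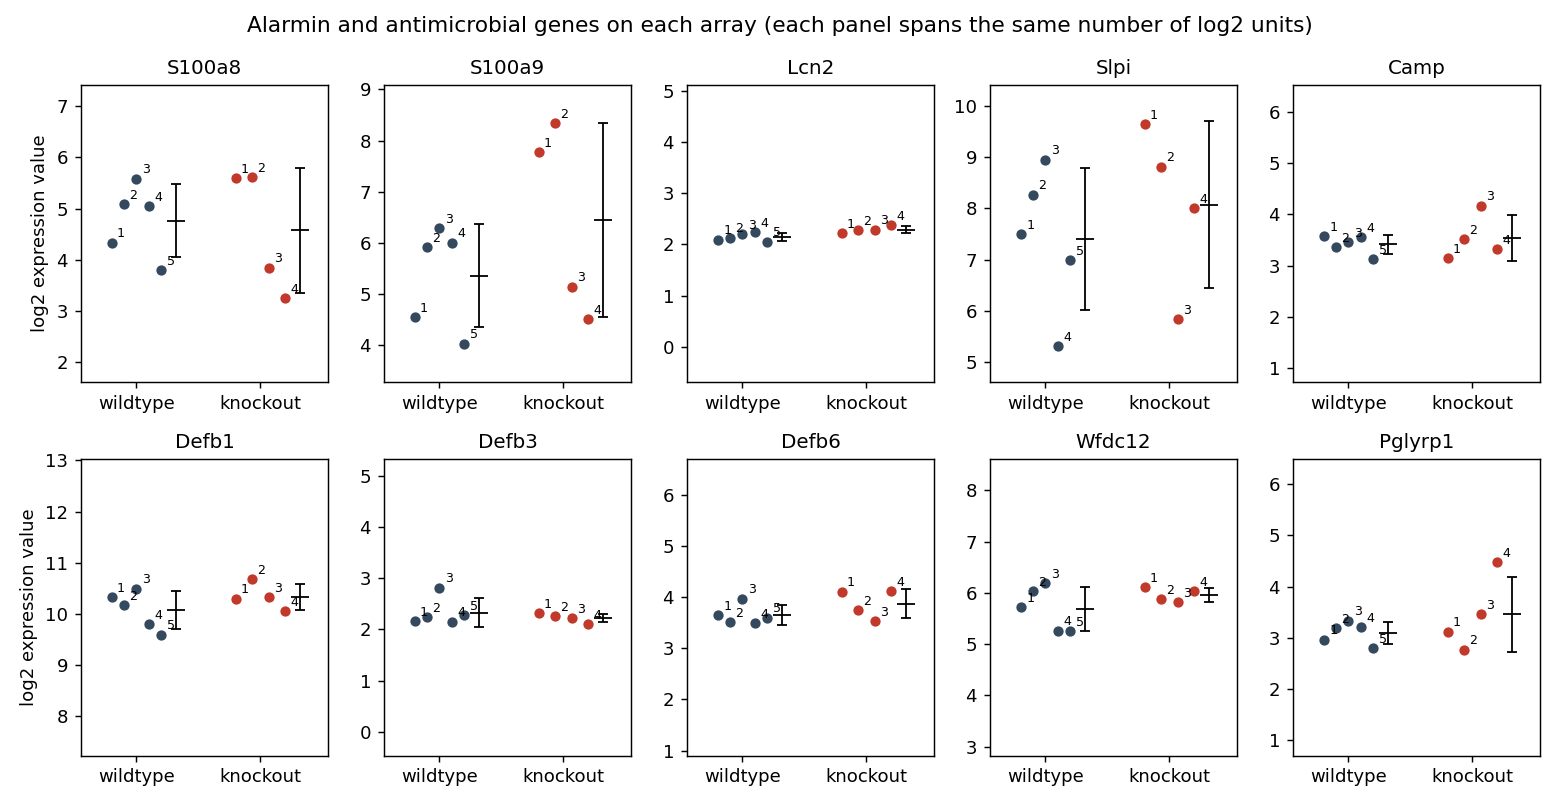
Log2 expression value (y axis) of each of the 10 genes on each array, in a panel per gene; points are arrays numbered by replicate, dark for wildtype and red for knockout, and the bar beside each group is its mean with 1 SD. S100a9 stands at 7.77 and 8.34 on knockout arrays 1 and 2 and at 5.15 and 4.52 on knockout arrays 3 and 4, and the groups overlap in every panel.

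The calprotectin genes varied together across the 9 arrays. Pearson's r between their log2 values was 0.860 (exact permutation p = 0.00351, 0.0806 after Benjamini-Hochberg adjustment over the 46 relations computed) and Spearman's rho was 0.95 (exact permutation p = 0.000353, adjusted 0.0162). The 46 relations are the 45 pairs of the 10 genes and Wfdc12 with Wfdc5, a pair picked for its likeness. That pair had the smallest Pearson p, so the adjusted Pearson values here and for Wfdc12 with Slpi are lower than over the 45 pairs alone. Without knockout array 4 and wildtype array 5, the arrays farthest from the S100a8 median, r was 0.817 over 7 arrays. With each group's mean taken off it was 0.986, so the arrays of a genotype that were high for the one were high for the other. The genes are neighbours on chromosome 3 with 0 protein-coding genes between them. Among 18192 other genes, S100a9 took place 51 by likeness to S100a8, and S100a8 took place 46 by likeness to S100a9. Over all 45 pairs of the 10 genes the median r was 0.31.

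Although they moved together, the spacing of the pair was wider on the knockout arrays. The S100a9 value minus the S100a8 value was 2.17, 2.73, 1.30 and 1.27 on the knockout arrays and 0.22, 0.84, 0.70, 0.97 and 0.24 on the wildtype arrays. The groups did not overlap, at 1.87 ± 0.71 (SD, n = 4) and 0.59 ± 0.34 (SD, n = 5). Only a difference between arrays can be read from this spacing, not which transcript was more abundant. The spacing was looked at after the values had been seen and was given no test. Of all single genes, 8.28% had groups that did not overlap, but no such share was computed for the spacing of 2 genes. S100a8 read 3.25 on knockout array 4, within the range of the array medians.

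**Figure D2:**
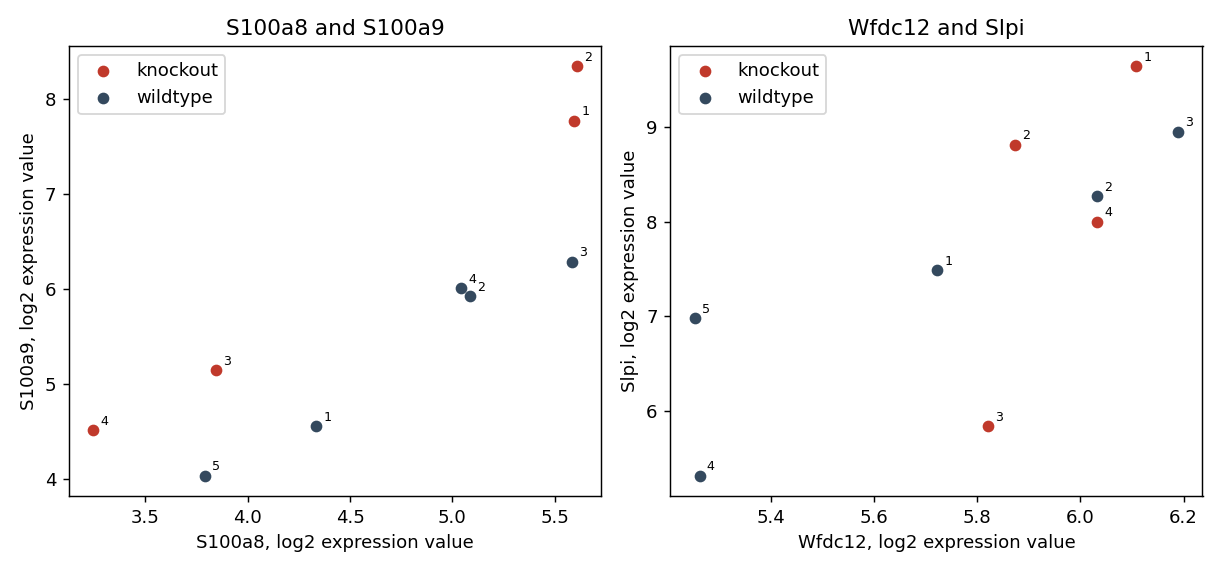
Log2 expression values of S100a9 against S100a8 (left) and of Slpi against Wfdc12 (right), with a point per array numbered by replicate, red for knockout and dark for wildtype. On the left both genotypes rise from lower left to upper right and the knockout points lie above the wildtype points at like S100a8 values; on the right knockout array 3 and wildtype arrays 4 and 5 are the lowest for Slpi.

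The stretches of 250 bases before the S100a8 and S100a9 start sites are shown because these neighbours varied together. They are from RefSeq on GRCm38.p6, 5′ to 3′ on the strand of the gene, at chr3:90668821-90669070 (plus strand) and chr3:90695722-90695971 (minus strand). Capitals mark matches to the C/EBP motif TTNNGNAA on either strand.
S100a8: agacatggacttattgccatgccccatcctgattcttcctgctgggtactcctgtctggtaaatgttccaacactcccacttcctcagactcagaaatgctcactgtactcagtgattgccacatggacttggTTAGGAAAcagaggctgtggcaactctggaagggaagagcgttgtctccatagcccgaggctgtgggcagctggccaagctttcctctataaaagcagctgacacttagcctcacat
S100a9: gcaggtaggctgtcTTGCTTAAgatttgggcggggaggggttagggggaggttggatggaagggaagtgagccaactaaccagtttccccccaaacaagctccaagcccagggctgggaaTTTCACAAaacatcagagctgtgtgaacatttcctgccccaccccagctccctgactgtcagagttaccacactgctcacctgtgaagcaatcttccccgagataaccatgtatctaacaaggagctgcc
The match before S100a8 begins 117 bases before the start site, and those before S100a9 begin 236 and 130 bases before it. Windows from 250 bases before to 50 bases after the start were found for 9 of the 10 genes, all but Defb1, and 7 of the 9 held this motif, which is in 40.7% of all 32851 windows. A match is a description of letters and not a binding site.

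Lcn2 encodes lipocalin 2, which holds the iron carriers of bacteria. It read 2.22, 2.28, 2.29 and 2.37 on the knockout arrays and 2.09, 2.13, 2.20, 2.24 and 2.06 on the wildtype arrays, all below the median of every array. Knockout arrays 2 to 4 lay above the wildtype range, and knockout array 1 lay inside it. The difference of 0.15 had a standard error of 0.10 and an interval of -0.07 to 0.36, with a limma adjusted p of 0.452 and an exact permutation p of 0.0317, where the smallest p that 126 divisions of the arrays allow is 0.00794. Camp encodes cathelicidin, a peptide that breaks microbial membranes. It read 3.14, 3.51, 4.16 and 3.32 on the knockout arrays and 3.58, 3.36, 3.45, 3.55 and 3.12 on the wildtype arrays. Knockout array 3 alone lay above the wildtype range, and the difference of 0.12 (standard error 0.20, interval -0.31 to 0.56) had a limma adjusted p of 0.767.

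Pglyrp1 encodes a protein that binds the peptidoglycan of bacterial walls. It read 3.12, 2.77, 3.46 and 4.48 on the knockout arrays and 2.96, 3.18, 3.34, 3.21 and 2.80 on the wildtype arrays. Knockout array 4 was far above the rest and knockout array 2 was the lowest of all 9. The difference of 0.36 (standard error 0.29, interval -0.28 to 1.00) had a limma adjusted p of 0.531, and without knockout array 4 it was 0.02. On that array the markers of dermal cells were also the highest: 7 fibroblast markers averaged 9.32, against 5.61 to 7.86 on the other arrays, and 7 smooth muscle markers averaged 6.14, against 3.28 to 3.76. Their part in the Pglyrp1 value was not tested. Among genes with a mean of at least 5, the pattern most like that of Pglyrp1 over the 9 arrays was that of Cuta (r = 0.959), followed by Col16a1, a collagen gene (r = 0.936).

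The beta-defensins are short cationic peptides, and Defb1 is the form made by epithelia without a stimulus. Its brightest probe set read 10.30, 10.68, 10.33 and 10.06 on the knockout arrays and 10.33, 10.18, 10.50, 9.80 and 9.59 on the wildtype arrays. This probe set has the less specific _s_at suffix, like that of S100a8. Knockout array 2 was the highest and wildtype arrays 4 and 5 were the lowest. The difference was 0.26 with a standard error of 0.20, an interval of -0.18 to 0.70 and a limma adjusted p of 0.510. The other Defb1 probe set gave 9.89, 10.30, 9.59 and 9.51 against 9.74, 9.70, 9.62, 9.39 and 9.13, which differ by 0.30 (limma adjusted p 0.432 over all probe sets). Both probe sets put knockout array 2 at the top and wildtype array 5 at the bottom.

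Defb3, a beta-defensin that can be induced in epithelia, and its relative Defb6 lie on chromosome 8 with 2 protein-coding genes between them. Defb6 read 4.10, 3.74, 3.53 and 4.12 on the knockout arrays and 3.65, 3.50, 3.97, 3.49 and 3.60 on the wildtype arrays. Knockout arrays 1 and 4 were above every wildtype array, and the difference of 0.23 (standard error 0.16, interval -0.11 to 0.58) had a limma adjusted p of 0.461. Defb3 read 2.31, 2.25, 2.22 and 2.11 on the knockout arrays and 2.16, 2.24, 2.82, 2.15 and 2.28 on the wildtype arrays, all below the array medians. Wildtype array 3 stood alone at the top, and the difference of -0.11 (standard error 0.15, interval -0.43 to 0.22) had a limma adjusted p of 0.731. The stretches around a match they share are shown to set these relatives side by side. They are at chr8:19293233-19293272 and chr8:19225364-19225403, both on the plus strand of GRCm38.p6 and from RefSeq, with the C/EBP match in capitals.
Defb3: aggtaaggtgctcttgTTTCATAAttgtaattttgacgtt
Defb6: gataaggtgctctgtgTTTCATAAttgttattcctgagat
The capitals are the same letters in both and begin 112 bases before the Defb3 start and 98 bases before the Defb6 start.

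Slpi and Wfdc12 encode WAP-domain proteins, and SLPI inhibits neutrophil elastase besides acting on microbes. Slpi read 9.64, 8.82, 5.84 and 8.002 on the knockout arrays and 7.49, 8.27, 8.95, 5.31 and 6.98 on the wildtype arrays. Both genotypes held high and low arrays, from knockout array 1 at the top to wildtype array 4 at the bottom. The means were 8.08 ± 1.63 (SD, n = 4) and 7.40 ± 1.39 (SD, n = 5), a difference of 0.67 with a standard error of 0.81, an interval of -1.12 to 2.47 and a limma adjusted p of 0.687. That difference was 0.15 without knockout array 1 and again without wildtype array 4, and 1.42 without knockout array 3. Wildtype array 4 is the only wildtype array with the female pattern of Xist and Eif2s3y. Against that array alone the knockout mean was higher by 2.76 with a limma adjusted p of 0.902, in a comparison added after the data had been seen.

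Wfdc12 read 6.11, 5.87, 5.82 and 6.03 on the knockout arrays and 5.72, 6.03, 6.19, 5.26 and 5.25 on the wildtype arrays. The knockout arrays lay close together within the upper part of the wildtype range, and wildtype arrays 4 and 5 were the lowest. The difference of 0.27 (standard error 0.20, interval -0.18 to 0.71) had a limma adjusted p of 0.506. Wfdc12 varied with Slpi, which is on the same stretch of chromosome 2 with 8 protein-coding genes between them. Pearson's r was 0.757 (exact permutation p = 0.0199, adjusted 0.253) and Spearman's rho was 0.85 (exact permutation p = 0.00607, adjusted 0.140), and r was 0.665 over 7 arrays without wildtype arrays 4 and 5. By Benjamini-Hochberg adjustment neither passed 0.05. Among 18192 other genes, Slpi took place 195 by likeness to Wfdc12, and Wfdc12 took place 218 by likeness to Slpi. Defb1, on chromosome 8, had a Pearson's r of 0.733 with Wfdc12, so a value of this size was not particular to neighbours.

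The gene most like Wfdc12 across the arrays was its direct neighbour Wfdc5, which encodes another WAP-domain protein. Wfdc5 read 7.52, 7.42, 7.53 and 7.58 on the knockout arrays and 7.37, 7.51, 7.82, 7.12 and 7.17 on the wildtype arrays. As for Wfdc12, wildtype array 3 was the highest and wildtype arrays 4 and 5 were the lowest. Pearson's r was 0.931 and Spearman's rho 0.80, and r was 0.798 over 7 arrays without wildtype arrays 4 and 5. Wfdc5 was picked as the most alike of 7183 genes, so these values are a description with no test. Stretches of the Wfdc12 and Slpi promoters are shown because each holds letters also found before a calprotectin gene. They are at chr2:164190749-164190788 and chr2:164356548-164356587, both on the minus strand of GRCm38.p6 and from RefSeq, with the C/EBP match in capitals.
Wfdc12: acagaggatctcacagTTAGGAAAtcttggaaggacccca
Slpi: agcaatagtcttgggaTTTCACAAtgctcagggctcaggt
The capitals of Wfdc12 are those of S100a8, and the capitals of Slpi are those of the match nearer to the S100a9 start.

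Over all 18193 genes limma called 226, with 93 higher (0.511%) and 133 lower (0.731%) in the knockout, and 0 of these were among the 10. At an unadjusted p under 0.05 the count was also 0 of 10, against 17.8% of all genes. Of the 10 genes, 6 had a mean under 5. Besides Lcn2 and Defb3, Pglyrp1 (3.26), Camp (3.47) and Defb6 (3.74) had means near the array medians. The counts of 0 therefore do not show that expression was unchanged. The difference was positive for 8 genes and negative for S100a8 and Defb3, with a median of 0.25, against a median of 0.02 and 53.5% positive over all genes. Standard errors were large, above the median of 0.16 over all genes for 8 of the 10. Wildtype array 5 was the lowest array for 5 of the 10 genes, and knockout arrays 2 and 4 were each the highest for 3.

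**Figure D3:**
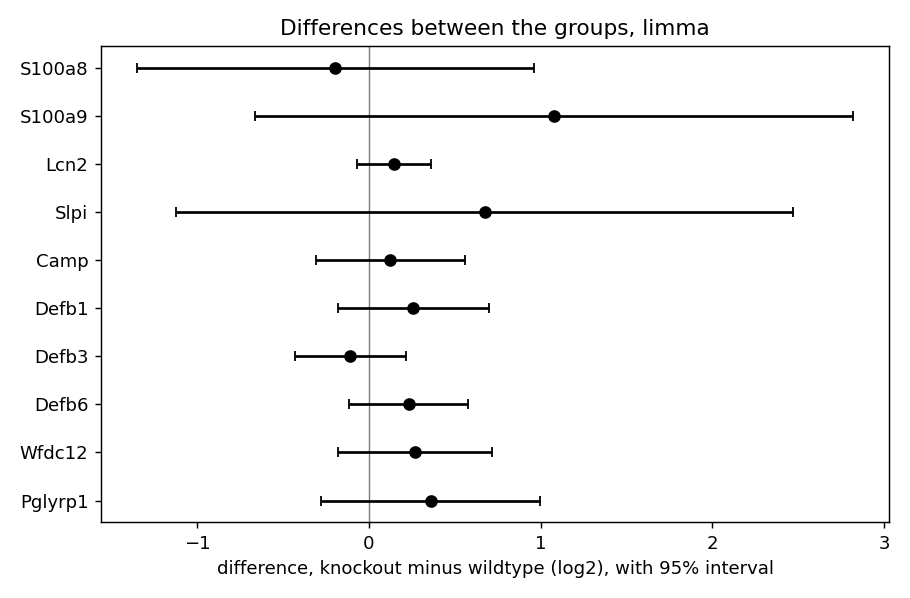
Difference between knockout and wildtype means (x axis, log2) for each of the 10 genes (y axis), with points for the limma estimate and bars for its 95% interval. Each interval crosses 0, and those of S100a8, S100a9 and Slpi are the widest.

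S100a9 was called in a single alternative. When limma weighted each array by how well it fitted the others of its group, its difference was 2.26 with a standard error of 0.55 (interval 1.07 to 3.46, 4.81-fold) and a limma adjusted p of 0.0254. That fit called 9.04% of all genes, 3.91% in the higher direction. The weights of knockout arrays 3 and 4, the low ones for S100a9, were 0.323 and 0.313, and those of knockout arrays 1 and 2 were 1.42 and 3.37. Over the other alternatives with the same test the adjusted p of S100a9 was not under 0.05, and its difference was positive in all 21, at 0.41 or more.

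Among genes with a mean of at least 5, the patterns most like those of the other members were spread over genes of many kinds, each given by Pearson's r over the 9 log2 values. S100a8 was most like Gramd4 (r = 0.954) and Smurf1 (0.941), and S100a9, after Stfa3, most like Ndufb2 (0.949). Lcn2 was most like Ndn (0.924) and Rhog (0.922), Slpi like Tomm40 (0.960) and Borcs6 (0.931), and Camp like Ccdc181 (0.949) and Rasal1 (0.940). Defb1 was most like Aars (0.956) and Tfr2 (0.955), Defb3 like Ssu72 (0.973) and Golga5 (0.904), and Defb6 like Scgb1a1 (0.861) and Lce3b (0.809). After Wfdc5, Wfdc12 was most like Mrps22 (0.899). With 7183 or 7184 genes ranked over 9 arrays, the highest r is large whatever the gene, and these values describe these arrays only.

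Relatives of the members were mostly without calls. With 1.24% of all genes called, counts of 0 or 1 in lists this short, here and below, say little about a list. Of 13 other S100 genes 0 were called in either direction, with a median difference of -0.10: S100a16 read 11.37 ± 0.23 (SD, n = 4) on knockout and 11.52 ± 0.05 (SD, n = 5) on wildtype arrays, and S100a14 read 10.62 ± 0.32 and 10.72 ± 0.06. Of 16 other beta-defensins 0 were called, with a median of 0.11, and Defb4, an inducible form, read 4.09 ± 1.28 and 4.46 ± 1.21. Of 11 other WAP-domain genes 0 were called, with a median of 0.10, and Wfdc21 read 11.68 ± 0.36 and 11.96 ± 0.26. Unadjusted p-values were under 0.05 for 2, 1 and 2 genes of these lists, against 17.8% of all genes, the share for the lists below too.

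Among 25 other peptidoglycan recognition and antimicrobial genes, Lpo alone was called, while 6 had an unadjusted p under 0.05. Lpo, which encodes lactoperoxidase, rose by 1.75 (standard error 0.30), at 5.65 ± 0.67 (SD, n = 4) on knockout and 3.90 ± 0.41 (SD, n = 5) on wildtype arrays (limma, adjusted p = 0.0244). Ccl20, which encodes a chemokine with antimicrobial activity, was singled out after its values had been seen. It read 9.73, 9.17, 5.65 and 5.50 on the knockout arrays and 3.47 to 3.92 on the wildtype arrays, and its limma adjusted p was 0.0516. Knockout arrays 1 and 2 were the high ones for Ccl20 as for S100a8 and S100a9, but for Ccl20 the other knockout arrays were above the wildtype range too. Rnase4 read 9.18 ± 0.69 and 10.10 ± 0.12, and Cxcl14 read 8.16 ± 0.25 and 8.37 ± 0.38.

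Among 12 other alarmins, Hmgb2 alone was called, while 6 had an unadjusted p under 0.05, against 17.8% of all genes. Hmgb2, which encodes a chromatin protein that can act outside the cell, fell by 0.57 (standard error 0.11), at 7.81 ± 0.14 (SD, n = 4) on knockout and 8.39 ± 0.08 (SD, n = 5) on wildtype arrays (limma, adjusted p = 0.0334). The list's median difference was -0.13; Anxa1 read 10.97 ± 0.64 on knockout and 11.64 ± 0.30 on wildtype arrays, and Hspa1b read 11.23 ± 1.23 and 11.06 ± 0.10. Of 19 receptors and partners of the 10 proteins 0 were called, with 3 at an unadjusted p under 0.05 and a median of -0.08. In that list Grn, whose product SLPI protects, read 8.32 ± 0.23 and 8.69 ± 0.29, and Bsg, a receptor of S100A9, read 8.24 ± 0.16 and 8.60 ± 0.16.

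Of 16 proteases that process these proteins or are inhibited by them, Klk6 alone was called, while 4 had an unadjusted p under 0.05. Klk6, a kallikrein, rose by 1.72 (standard error 0.30), at 7.65 ± 0.52 (SD, n = 4) on knockout and 5.94 ± 0.54 (SD, n = 5) on wildtype arrays (limma, adjusted p = 0.0254). The kallikreins that cut cathelicidin in skin include Klk7, which read 13.47 ± 0.11 on knockout and 13.03 ± 0.21 on wildtype arrays without a call (limma adjusted p 0.132). Klk8 read 12.03 ± 0.29 and 11.65 ± 0.11.

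Some genes that act upstream of alarmin and antimicrobial genes were called higher in the knockout. Of 25 transcription factors and signal mediators 7 rose and 0 fell by limma, against 0.511% and 0.731% of all genes. The median difference was 0.52, and 15 had an unadjusted p under 0.05, against 17.8% of all genes. The list was chosen with earlier results of these data known, so these counts are a description and not a test. Junb, an AP-1 subunit, rose by 2.18, at 9.63 ± 0.23 (SD, n = 4) on knockout and 7.45 ± 0.27 (SD, n = 5) on wildtype arrays (limma, adjusted p = 0.000273). Fos, its partner, rose by 1.37, at 11.71 ± 0.49 on knockout and 10.34 ± 0.42 on wildtype arrays (limma, adjusted p = 0.0343), and Relb, an NF-kB subunit, rose by 1.33, at 4.74 ± 0.39 on knockout and 3.41 ± 0.12 on wildtype arrays (limma, adjusted p = 0.00579). The others that rose, by 1.27 for Jun, 1.02 for Nfkb2, 0.70 for Traf6 and 0.65 for Cebpb, were named after their values had been seen. The Nfkb2 value comes from a probe set of the less specific _x_at type. Without such probe sets its difference was 0.43 (limma adjusted p 0.225) and it was not called. Cebpb, which encodes a C/EBP factor, read 11.83, 11.65, 11.58 and 11.54 on the knockout arrays and 10.97, 10.78, 11.06, 10.85 and 11.34 on the wildtype arrays. Every knockout array was above every wildtype array for Cebpb, and 8.28% of all genes had groups that did not overlap. Cebpa and Cebpd, other C/EBP genes of the list, differed by -0.12 and -0.17 without a call. Nfkbia, an inhibitor of NF-kB, read 12.39 ± 0.59 and 10.57 ± 0.88 without a call (limma adjusted p 0.0719), and Klf4 read 12.38 ± 0.46 and 12.23 ± 0.15.

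The promoter windows were also searched on both strands for motifs of these factors. The AP-1 motif TGANTCA was in 0 of the 9 windows, against 7.81% of all windows, and the STAT motif TTCNNNGAA in 0 of 9, against 8.30%. The NF-kB motif was in the windows of Pglyrp1, Defb6 and Camp, against 8.46% of all windows. No match overlapped a match to another motif. These counts describe the letters of short windows and say nothing of the factors.

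Of 10 measured cytokines and growth factors that induce such genes, Hbegf alone was called, while 4 had an unadjusted p under 0.05 and 8 a positive difference (median 0.23). Their mean log2 level, Hbegf included, was 4.28 to 4.61 on the knockout arrays and 3.59 to 4.04 on the wildtype arrays. Il17c, Il17f, Il19, Il22, Il36a, Il36b and Il36g were also on this list but had no value here. Hbegf, which encodes a ligand of the EGF receptor, rose by 3.42, at 9.38 ± 0.46 (SD, n = 4) on knockout and 5.95 ± 0.93 (SD, n = 5) on wildtype arrays (limma, adjusted p = 0.00435). Tgfa, another such ligand, read 6.59 ± 0.21 on knockout and 6.94 ± 0.39 on wildtype arrays. Of 20 cytokine and pattern receptors 0 were called, with 4 at an unadjusted p under 0.05 and a median of 0.05. Tnfrsf1a, the main receptor of TNF, read 9.02 ± 0.16 and 8.67 ± 0.20, and Il17rc, a subunit of the interleukin-17 receptor, read 8.53 ± 0.25 and 8.85 ± 0.16.

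The 11 called genes of these lists kept the sign of their difference under every alternative run, but not their calls. With the Xist level as a covariate Junb alone of the 11 was called (difference 2.51, limma adjusted p 0.00491). The differences of the others in that fit were 2.92 for Hbegf, 2.07 for Klk6, 1.79 for Fos, 1.38 for Relb, 1.37 for Lpo, 1.23 for Jun, 0.92 for Nfkb2, 0.80 for Cebpb, 0.75 for Traf6 and -0.56 for Hmgb2. Against wildtype array 4 alone, a comparison that called 0 of all genes with its single wildtype array, the difference of Junb was 2.58 and that of Hbegf 3.00. Leaving out knockout array 2, wildtype array 1 or wildtype array 2 left 4 called in each case, wildtype array 4 left 5, and knockout array 3, knockout array 4 or wildtype array 3 left 6 each. Junb was called in 20 of 21 alternatives, Hbegf and Jun in 19 of 21, Relb in 18 and Lpo in 15 of 20, Klk6 in 12 of 21, Traf6 and Fos in 10, Nfkb2 and Cebpb in 9 and Hmgb2 in 8 of 21.

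**Figure D4:**
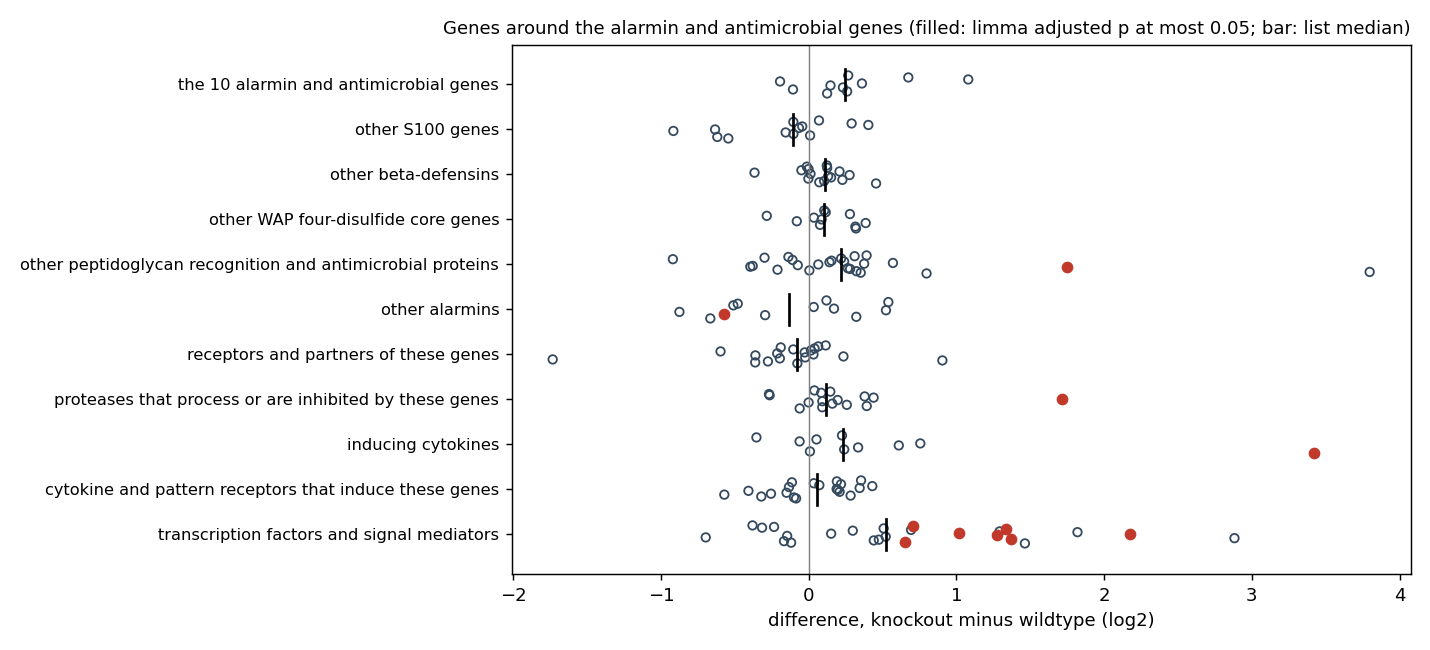
Difference between knockout and wildtype means (x axis, log2) for each measured gene of the 10 and of 10 lists around them (y axis), with filled red points for a limma adjusted p of at most 0.05, open points for the rest and a bar at each list's median. The 10 genes have no filled point, and 7 of the filled points are transcription factors and signal mediators.

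Neutrophils carry S100A8, S100A9, lipocalin 2, cathelicidin and PGLYRP1, and their other markers were read beside these genes. Of 14 neutrophil markers 0 were called and 0 had an unadjusted p under 0.05, with a median difference of 0.09. Their mean log2 level was 3.59 to 3.81 on the knockout arrays and 3.25 to 3.77 on the wildtype arrays. The granule enzymes Elane and Mpo, named as defining markers, read 2.95 ± 0.22 and 2.83 ± 0.46 (SD, n = 4) on knockout and 2.95 ± 0.31 and 2.68 ± 0.29 (SD, n = 5) on wildtype arrays. Stfa2l1, a stefin on the marker list, read 11.85, 12.10, 10.95 and 11.11 on the knockout arrays and 11.21, 11.20, 11.69, 10.87 and 10.29 on the wildtype arrays, so that knockout arrays 1 and 2 were the highest, as for S100a9. For Elane, Mpo and Ngp these were the lowest knockout arrays, at 2.79 and 2.78, 2.39 and 2.51, and 4.20 and 4.25. For the markers Ltf, Csf3r and Cxcr2, knockout arrays 1 and 2 were neither the highest nor the lowest pair of knockout arrays. The means of Elane (2.95), Mpo (2.74) and Csf3r (2.66) over all arrays lay below every array median, so their order of arrays can be noise. The order of arrays is not given here for the other markers of the list. The part of neutrophils in the S100a8 and S100a9 values was not tested. Ltf read 4.62 ± 1.15 and 5.01 ± 1.37. Among 7183 genes with a mean of at least 5, the stefin gene Stfa3 was, with r = 0.952, the most like S100a9 across the 9 arrays.

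Markers of other cells were uneven between arrays. Of 16 macrophage and Langerhans cell markers 0 were called, and their mean was 5.31 to 5.56 in the knockout. Wildtype arrays 4 and 5 had means of 6.39 and 4.34. Wildtype array 5 was thus the lowest array for these markers as it was for 5 of the 10 genes. This was not particular to these markers. It was also the lowest for neutrophil (3.25), T cell (3.11), fibroblast (5.61) and melanocyte (3.48) markers, but the highest for endothelial markers (3.32). Of 7 T cell, 7 mast cell, 7 fibroblast, 7 smooth muscle, 7 melanocyte, 6 endothelial, 5 adipocyte, 4 erythroid and 9 hair follicle markers 0 were called. Their part in the values of the 10 genes was not tested. Without knockout array 4 and wildtype array 5, a comparison added after the data had been seen, again 0 of the 10 genes were called, while 99 of all genes were called higher and 102 lower.

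**Figure D5:**
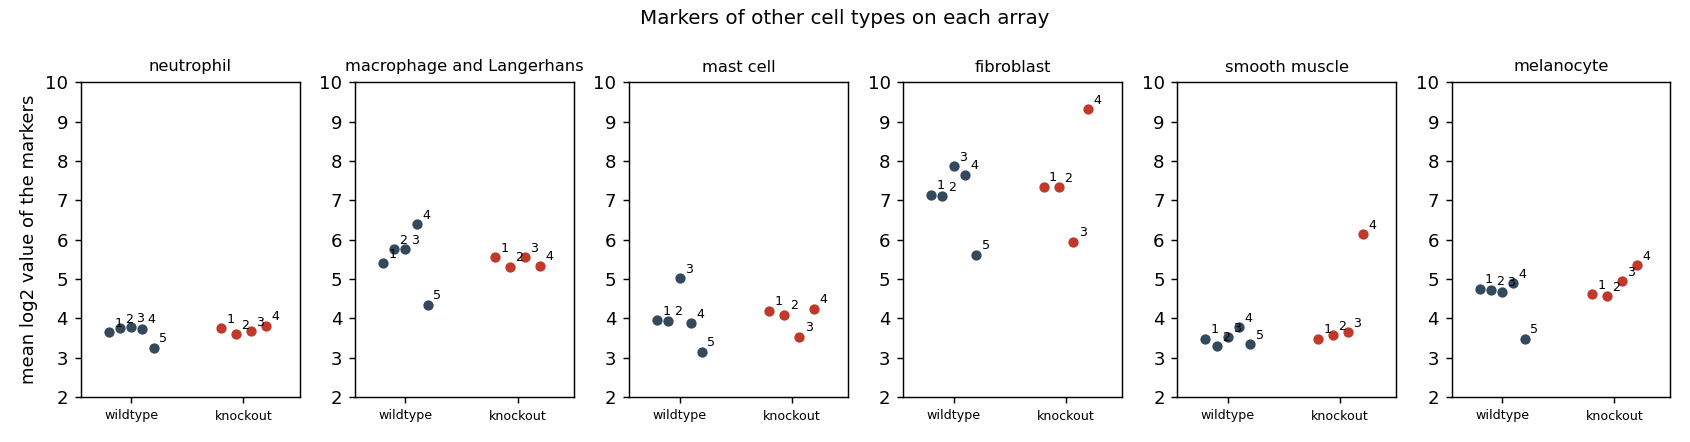
Mean log2 value of the markers of 6 other cell types (y axis), in a panel per type, with a point per array numbered by replicate, dark for wildtype and red for knockout. Knockout array 4 stands apart at 9.32 for fibroblast and 6.14 for smooth muscle markers, and neutrophil markers lie between 3.25 and 3.81 on all arrays.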

How the data were processed

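Epidermis of 4 knockout and 5 wildtype newborn mice was measured on Affymetrix Mouse Genome U430 2.0 arrays, grouped and numbered by sample title. The authors deposited log2 expression values of 45037 probe sets for 9 arrays; the submitters' processing notes name the affy package. Background correction, scaling and probe summary: not given in the sources used. That the deposited values are log2 was judged from their range (1.43 to 14.46). Precision is limited by the number of arrays. At most 124 values were identical between 2 arrays of a group.

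Of the probe sets, 34945 named 1 gene in the platform annotation, 932 several and 9160 were not listed. The probe set with the highest mean stood for a gene, which left 18193 genes. The test was that of limma 3.58.1, run in R 4.3.3 (lmFit, eBayes, genotype as the only term, two-sided), with Benjamini-Hochberg adjustment over all genes and a threshold of 0.05; single genes also had an exact two-sided permutation test over all 126 divisions of the arrays. The code was tested on simulated data.

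The members, gene lists and motifs were chosen with earlier results of these data known. Named genes are all members, up to 3 called in each direction and the 2 with the highest mean per list, defining markers of a cell type (chosen beside that rule), the 2 genes most like each member by Pearson's r (mean of at least 5), Alox12b, Xist and Eif2s3y. Alternatives changed the probe summary, probe specificity, scaling, level filter, variance model, array weights, Xist covariate, replicate block and arrays left out. Promoter windows were taken from RefSeq on GRCm38.p6.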

Additional observations from a re-analysis of the deposited data

Results flagged for a closer look

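Of 66 groups checked for an array far from the others, 8 had such an array, where chance gives about 1 in 20 for a single group. The groups share arrays and some lists share genes, so the count cannot be read as an excess over that share. Among the members this was Defb3, at 2.82 on wildtype array 3. The mean level of the other S100 genes was 5.38 on knockout array 3, below the other knockout arrays. Wildtype array 5 was far below the other wildtype arrays for inducing cytokines (3.59), neutrophil markers (3.25) and melanocyte markers (3.48), and far above them for the receptors that induce such genes (5.73). Knockout array 4 stood at 6.14 for smooth muscle markers, and knockout array 1 at 9.99 for keratinocyte markers, both above the other knockout arrays.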

How the results depend on the processing

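The members were compared under 21 alternatives, which gave 203 values: 188 kept their direction and their side of the threshold, 14 reversed in sign and 1 became called. The call was S100a9 under array weights, so that 1 member was called higher there. None of the reversed differences was called. S100a8 turned to 0.49 under array weights, to 0.0042 without knockout array 4 and wildtype array 5, and ranged from -0.54 to 0.25 when an array was left out. Camp turned to -0.0068 under array weights, -0.026 with the Xist covariate and -0.012 for the knockout arrays against wildtype array 4, and ranged from -0.085 to 0.26. Defb3 turned to 0.022 with the Xist covariate and 0.069 against wildtype array 4, and ranged from -0.15 to 0.015. Pglyrp1 turned to -0.13 under array weights and -0.056 without knockout array 4 and wildtype array 5. The cause was not tested.

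Over all genes, calls higher in the knockout numbered 147 after quantile normalization, 712 with array weights, 8 with the Xist covariate and 0 against wildtype array 4, and ranged from 29 to 127 with an array left out (29 without knockout array 2, 34, 38 and 41 without wildtype arrays 2, 1 and 4, and 48 without knockout array 4). Calls lower numbered 932, 1 and 0 in the last 3 of these settings, and ranged from 33 (without knockout array 2) to 181, with 37, 39, 45, 48 and 83 without wildtype array 2, knockout array 4 and wildtype arrays 1, 4 and 3. With the replicate block 43 genes were called higher and 76 lower. Same-numbered arrays did not deviate together: correlations of deviations were -0.213, -0.0992, -0.206 and 0.179, and for 1 of the 4 numbers the arrays correlated best with their own number. Leaving out both arrays, and the comparison with wildtype array 4, which has 1 sample assumed to vary like the knockout arrays, were chosen after seeing the data. S100a8 has a less specific probe set only, so that alternative gave it no value, and the level filter kept S100a9, Slpi, Defb1 and Wfdc12.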
